A study of Homo sapiens with 9 samples.

Results

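MYC and the small proteins that compete with it for its partner MAX were followed in MEC1 cells, a line derived from chronic lymphocytic leukemia, cultured in 2D or bioprinted in a 3D hydrogel. The network was taken as 9 named genes, MYC, MAX, MXD1, MXD3, MXD4, MXI1, MNT, MLX and MGA. All 9 were among the 59050 gene symbols of the count table, and all 9 were among the 13463 symbols retained for testing, that is with more than 1 CPM (counts scaled to a common library size) in at least 3 samples. RNA sequencing had been done on 9 samples in 3 groups of 3: MEC1 cells in conventional 2D culture (2D), and MEC1 cells printed in CELLINK Bioink, an alginate and nanofibrillar cellulose hydrogel, and harvested at day 7 (3D_7d) or day 14 (3D_14d). All samples came from 1 cell line, and the labels do not say whether replicates were separate cultures, so p-values measure the spread between these samples, which may be technical. RNA from 2D cells was taken on a column, whereas RNA from both 3D groups went through TRIzol, DNase and then a column. Culture and extraction therefore cannot be told apart in either comparison against 2D, and the labels give no time in culture for 2D. Both 3D groups went through the same extraction steps, but RNA was taken on different days. Day and handling at harvest thus cannot be told apart between them.

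MYC binds DNA only as a dimer with MAX, through a basic helix-loop-helix zipper, and these dimers recognize the E-box CACGTG and raise the transcription of genes for growth, ribosome assembly, nucleotide synthesis and DNA replication. MXD1, MXD3, MXD4, MXI1 and MNT also need MAX, bind the same E-box and recruit the SIN3-HDAC corepressor, so that they oppose MYC at shared sites. MGA pairs with MAX inside the Polycomb complex PRC1.6, while MLX is another MAX-like partner that dimerizes with some MXD proteins and with the glucose-sensing factors MLXIP (MondoA) and MLXIPL (ChREBP). MYC is a well known driver of proliferation in B-cell malignancies, and MXD proteins are classically linked to cell cycle exit and differentiation.

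The recognition sequence of the network was found close to the start of 3 of its own genes. RefSeq promoters (GRCh38.p14, 250 bases before to 50 after each start) were listed for 8 of the members, and MYC was missing. CACGTG, which reads the same on both strands, was present in the promoters of MXD4, MNT and MLX and in none of those listed for MAX, MXD1, MXD3, MXI1 and MGA. For comparison, 2548 of 35116 promoters (7.26%) held it, or 2396 of 27305 genes (8.77%). The stretch around each match is given here in the direction of transcription with the motif in capitals, because MXD4 and MLX are among the members that rose in 3D. Each stretch lies upstream of its gene, outside annotated genes. The first is chr4:2262330-2262359 (minus strand, motif at position -238 from the start), the second chr17:2401236-2401265 (minus strand, -193) and the third chr17:42567038-42567067 (plus strand, -50).
MXD4: gggccgggccacCACGTGctgttgctaagc
MNT: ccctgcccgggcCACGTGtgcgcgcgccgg
MLX: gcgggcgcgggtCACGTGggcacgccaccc

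Depth was high and similar across groups, with 54662799 to 85968686 reads assigned to genes per sample. Replicates of 3D_14d differed most from each other: the chi-square per gene was 155 to 305 for their pairs and 22.5 to 81.9 for pairs within the other groups, and both of the highest values involved 3D_14d replicate 1. For single members, calls that change without this library are given with and without it. Some list counts also change without it, and not all of those are given. The 5 B-cell markers MS4A1, CD79A, CD79B, PAX5 and CD22 were expressed in every sample and summed to 2060-2127 CPM in 2D, 2358-2937 in 3D_7d and 3041-3292 in 3D_14d. They did not move as 1: CD22 had means of 542, 250 and 333 CPM in the same order. MS4A1, CD79A, CD79B and PAX5 had higher means in 3D_14d than in 2D. Of the 8 T and NK cell markers, 5 or 6 had mean levels under 1 CPM in each group, with CD3D at 0 in all 2D and 3D_14d samples. Their sum was 314-359 CPM in 2D, 463-492 in 3D_7d and 534-725 in 3D_14d, nearly all of it TRAC. Sums of 7 myeloid markers were 1.75-2.32, 1.16-2.5 and 3.87-5.21 CPM in the same order, with LYZ and S100A8 at 0 in 2D and 3D_14d. Sums of 8 stromal, endothelial and erythroid markers were 23.4-26.7, 40.3-56.4 and 58.0-82.4 CPM, without overlap between groups and with PECAM1 the largest. Means rose for PECAM1 (13.8, 42.4 and 64.5 CPM) and HBA1 (0.0207, 1.77 and 3.23). They were lower in 3D for COL1A1 (6.95, 3.01 and 3.20) and PDGFRB (3.68, 0.459 and 2.12), and the others stayed under 1 CPM. The part of these markers in the results on the network was not tested. In bulk RNA, fewer cells of a type and less RNA per cell cannot be told apart.

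MYC itself was the most strongly expressed member in 2D and fell in both 3D groups. Its level, in CPM normalized by trimmed mean of M-values (TMM), was 488, 461 and 427 in the 2D replicates, 74.8, 96.5 and 108 at day 7, and 76.2, 128 and 119 at day 14. Every 3D sample was below every 2D sample, and the day 7 and day 14 ranges overlapped. The mean of 459 ± 30.6 CPM (SD, n = 3 per group here and throughout) in 2D was 4.93-fold higher than that of day 7 (93.0 ± 16.7) and 4.26-fold higher than that of day 14 (108 ± 27.7). As log2 fold changes with their standard errors, these were -2.30 ± 0.21 at day 7 (adjusted p = 8.69e-06, edgeR quasi-likelihood test with Benjamini-Hochberg adjustment over all retained genes, used for every adjusted p below) and -2.09 ± 0.20 at day 14 (adjusted p = 2.1e-05). Both changes passed in all 18 alternative analyses. By p-value MYC ranked 85 and 100 of 13463 genes. Between day 14 and day 7 the log2 difference was 0.21 ± 0.20 (adjusted p = 0.439). Without 3D_14d replicate 1, the lowest day 14 sample, it was 0.43 (adjusted p = 0.0473), and the day 14 change from 2D was -1.89 (adjusted p = 7.35e-06). MYC lies on chromosome 8 from 127735434 to 127742951 on the plus strand (GRCh38), and no other annotated gene shares its exons.

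PVT1, a long noncoding RNA gene next to MYC on chromosome 8 (127794537 to 128187101, plus strand), fell at day 7 and was partly back at day 14. It stood at 44.4, 43.2 and 49.6 CPM in 2D, at 22.4, 14.6 and 18.5 at day 7 and at 41.3, 35.2 and 30.4 at day 14. The day 7 samples were the lowest, and the day 14 samples lay between the other groups without overlap. The fall at day 7 was -1.31 ± 0.19 on the log2 scale (adjusted p = 0.000178), and the rise from day 7 to day 14 was 0.95 ± 0.19 (adjusted p = 0.00331). The difference of day 14 from 2D was -0.36 ± 0.18 (adjusted p = 0.142), and it passed in 2 alternatives with -0.58 to -0.48. The adjacent genes thus had different day 14 values, with MYC still low in each library.

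**Figure D1:**
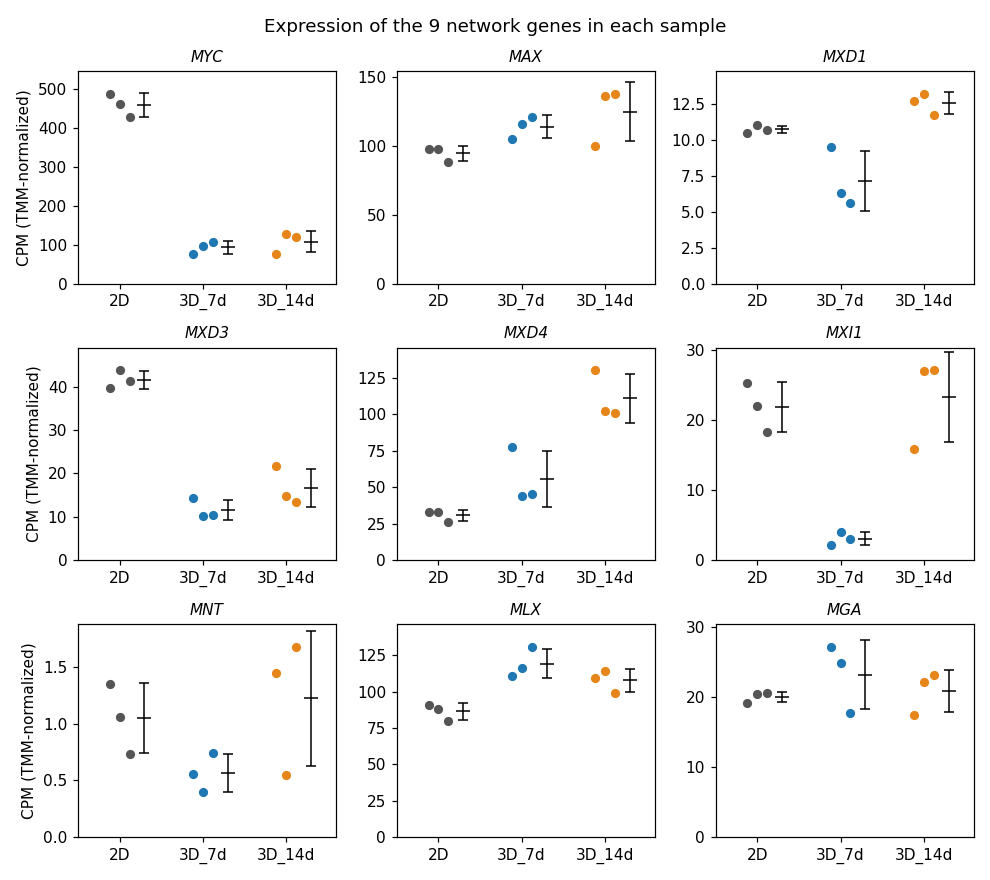
TMM-normalized CPM of each of the 9 network genes (vertical axes start at 0) in the 2D, 3D_7d and 3D_14d groups. Each point is 1 sample and the bars show the mean ± SD of 3 samples. MYC and MXD3 are low in all 6 3D samples, MXD4 is high in them, and MXI1 is low at day 7 alone among the 3 groups.

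MAX, the shared dimerization partner of MYC and its antagonists, did not pass the test in any comparison. Levels were 97.9, 97.3 and 88.0 CPM in 2D, 105, 115 and 121 at day 7 and 100.1, 136 and 138 at day 14. All 3D samples were above all 2D samples, although by little in 3D_14d replicate 1. The log2 differences from 2D were 0.27 ± 0.15 (adjusted p = 0.166) and 0.40 ± 0.15 (adjusted p = 0.0532), and day 14 differed from day 7 by 0.13 ± 0.15 (adjusted p = 0.537). Without 3D_14d replicate 1, the day 14 value was 0.54 (adjusted p = 0.00295), and DESeq2 also placed it past the threshold (adjusted p = 0.0376). MAX is on chromosome 14 (65006174 to 65102690, minus strand).

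MLX, the parallel partner, rose slightly at day 7. It measured 91.1, 88.3 and 80.1 CPM in 2D, 111, 117 and 131 at day 7 and 109.7, 114 and 99.3 at day 14. No 3D sample overlapped with 2D. Its log2 change was 0.46 ± 0.13 at day 7 (adjusted p = 0.0131), a 1.38-fold rise, and 0.32 ± 0.13 at day 14 (adjusted p = 0.0770). Day 14 differed from day 7 by -0.15 ± 0.13 (adjusted p = 0.431). The day 7 call rested on a small difference: it passed in 12 of 18 alternatives, with adjusted p from 0.00305 to 0.129, and was lost without 2D replicate 2 (0.0649) or 3 (0.0938), without 3D_7d replicate 2 (0.0539) or 3 (0.102), with total-count scaling (0.0535) and with no filter (0.129). Without 3D_14d replicate 3 the day 14 rise also passed (0.37, adjusted p = 0.0445). MLX (chromosome 17, 42567068 to 42573239, plus strand) shares 29.7% of its exonic bases with PSMC3IP on the opposite strand, and the library kit does not mark strand. PSMC3IP stood at 4.59-15.2 CPM, and changed by 0.68 ± 0.20 (adjusted p = 0.0151) and -0.75 ± 0.20 (adjusted p = 0.0113) at day 7 and day 14, so reads of these genes in the shared bases cannot be told apart.

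The 4 MXD repressors went different ways. MXD3 fell along with MYC, MXD4 rose, MXI1 dropped at day 7 and was back at its 2D level at day 14, and MXD1 dipped at day 7.

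MXD3, a repressor known for its expression in the S phase of cycling cells, fell in both 3D groups. The 2D replicates had 39.6, 43.7 and 41.2 CPM, those of day 7 14.3, 10.2 and 10.4, and those of day 14 21.7, 14.7 and 13.5. All 2D samples lay above all 3D samples, and 3D_14d replicate 1 was the highest of the latter. The log2 changes from 2D were -1.84 ± 0.21 (adjusted p = 4.18e-05) and -1.32 ± 0.21 (adjusted p = 0.000485), equal to levels 3.58-fold and 2.5-fold lower. Both passed in all 18 alternatives. The difference of day 14 from day 7, 0.52 ± 0.21, did not pass (adjusted p = 0.0799). It passed without 3D_7d replicate 1 (0.70, adjusted p = 0.0419) or 3D_14d replicate 3 (0.65, adjusted p = 0.0442). Without 3D_14d replicate 1 it was 0.29 (adjusted p = 0.223), and the day 14 change from 2D was -1.56 (adjusted p = 5.16e-05). MXD3 (chromosome 5, 177305500 to 177312757, minus strand) shares 21.9% of its exonic bases with PRELID1 on the opposite strand. PRELID1 was more abundant, at 106-205 CPM, and moved the other way at day 7 (0.58 ± 0.19, adjusted p = 0.0274).

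MXD4, a repressor expressed widely in resting and differentiated cells, rose stepwise. It had 33.3, 32.9 and 26.2 CPM in 2D, 77.6, 44.2 and 45.5 at day 7 and 129.9, 102 and 101 at day 14. The 3 groups did not overlap. The log2 change was 0.86 ± 0.22 at day 7 (adjusted p = 0.00683), a 1.81-fold rise, and 1.85 ± 0.22 at day 14 (adjusted p = 8.09e-05), a 3.6-fold rise. Day 14 exceeded day 7 by 0.99 ± 0.22 (adjusted p = 0.00576). All 3 differences passed in all 18 alternatives, although 3D_7d replicate 1 carried much of the day 7 rise, which was 0.52 (adjusted p = 0.0383) without it. MXD4 is on chromosome 4 (2247432 to 2262109, minus strand).

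MXI1 had the largest log2 fold change of the 9 genes in absolute value, and it was transient. This MAX-dependent repressor was at 25.3, 22 and 18.3 CPM in 2D, at 2.20, 4.05 and 2.98 at day 7 and at 15.9, 27.0 and 27.1 at day 14. Day 7 was far below both other groups, which overlapped with each other. The fall at day 7 was -2.83 ± 0.28 (adjusted p = 1.51e-05), 7.10-fold, and the rise from day 7 to day 14 was 2.92 ± 0.28 (adjusted p = 8.68e-05), 7.58-fold. Both passed in all 18 alternatives. By p-value MXI1 ranked 152 of 13463 in the first and 19 in the second comparison. Day 14 differed from 2D by 0.09 ± 0.25 (adjusted p = 0.800), a value whose sign turned with total-count scaling (-0.091). MXI1 is on chromosome 10 (110207605 to 110287365, plus strand).

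MXD1, the founding member of the family and a marker of differentiating cells, was low throughout and lowest at day 7. Its values were 10.5, 11 and 10.7 CPM in 2D, 9.53, 6.30 and 5.59 at day 7 and 12.7, 13.2 and 11.7 at day 14. The groups did not overlap, with 3D_7d replicate 1 nearest to 2D. The change from 2D to day 7 was -0.59 ± 0.22 (adjusted p = 0.0433) and that to day 14 was 0.23 ± 0.21 (adjusted p = 0.437), and day 14 exceeded day 7 by 0.81 ± 0.22 (adjusted p = 0.0153). The fall at day 7 passed in 11 of 18 alternatives (adjusted p 0.00502-0.130) and was lost without 2D replicate 1 (0.0741), 2 (0.0900) or 3 (0.0719), without 3D_7d replicate 2 (0.110) or 3 (0.124), with edgeR's own filter (0.0515) and with no filter (0.130). The rise to day 14 was lost without 3D_7d replicate 2 (0.0584) or 3 (0.0589). MXD1 is on chromosome 2 (69915041 to 69942945, plus strand).

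MNT and MGA, the larger MAX partners, gave no call. MNT, the most widely expressed MYC antagonist in mammalian tissues, was scarcely expressed here, at 1.35, 1.06 and 0.736 CPM in 2D, 0.554, 0.402 and 0.741 at day 7 and 1.45, 0.552 and 1.67 at day 14. All 3 groups overlapped. Its log2 differences were -0.89 ± 0.49 (adjusted p = 0.163) and 0.22 ± 0.48 (adjusted p = 0.746) against 2D and 1.11 ± 0.50 between the 3D groups (adjusted p = 0.110), which reached 1.46 (adjusted p = 0.0283) without 3D_14d replicate 2. MNT (chromosome 17, 2384073 to 2401104, minus strand) shares 21.4% of its exonic bases with AC006435.1 on the opposite strand. All 1065 bases of AC006435.1 lie within MNT exons, and the library kit does not mark strand. Its count of 0 in every sample therefore does not show whether it was expressed, and reads in the shared bases cannot be told apart.

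MGA, the scaffold of PRC1.6, had 19.2, 20.4 and 20.6 CPM in 2D, 27.2, 24.9 and 17.8 at day 7 and 17.5, 22.2 and 23.1 at day 14. Again the groups overlapped. The log2 differences were 0.21 ± 0.19 (adjusted p = 0.380) and 0.06 ± 0.19 (adjusted p = 0.823) against 2D, and -0.15 ± 0.19 between day 14 and day 7 (adjusted p = 0.575). The day 14 value against 2D was -0.13 with total-count scaling. MGA is on chromosome 15 (41660412 to 41773081, plus strand).

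**Figure D2:**
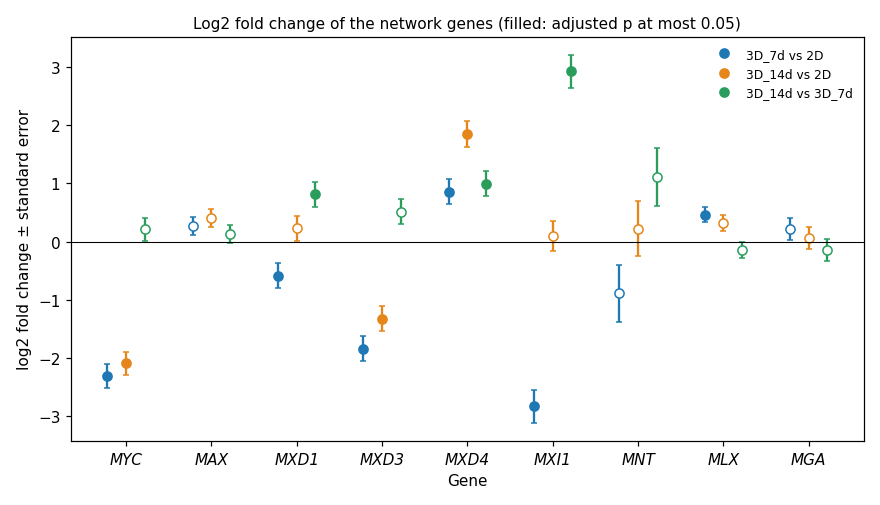
Log2 fold change with its standard error for the 9 network genes in the comparisons 3D_7d vs 2D (blue), 3D_14d vs 2D (orange) and 3D_14d vs 3D_7d (green). Filled points have an adjusted p of at most 0.05, and MXI1 goes from -2.83 in the first comparison to 0.09 in the second, while MYC stays at -2.30 and -2.09.

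The remaining genes of the extended network were low or unchanged by the test. MYCN, the neuronal paralog of MYC, had 0 or 1 read in 8 of the samples and 30 reads in 3D_14d replicate 1, so it was not retained. MYCL, another paralog, had group means of 0.873 ± 0.636, 1.22 ± 0.649 and 1.37 ± 0.348 CPM, with adjusted p of 0.521 and 0.404 against 2D and 0.853 between day 14 and day 7. MLXIP, the main MLX partner in lymphoid cells, had means of 25.5 ± 1.98, 19.5 ± 5.63 and 26.9 ± 4.22 CPM, and its adjusted p was 0.149 at day 7 and 0.800 at day 14, and 0.112 between them. MLXIPL, its liver paralog, had at most 6 reads in a sample.

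Counted together, 2 members rose (MXD4 and MLX) and 4 fell (MYC, MXD1, MXD3 and MXI1) at day 7 against 2D, or 22.2% and 44.4% of 9. Over all retained genes 22.2% were called up and 21.2% down. At day 14 against 2D, 1 member rose (MXD4) and 2 fell (MYC and MXD3), beside 19.0% and 17.2% of all genes. From day 7 to day 14, 3 members rose (MXD1, MXD4 and MXI1) and 0 fell, beside 14.5% and 13.6%. In that last comparison edgeR gave 0 falling members at an unadjusted p under 0.05 as well, and so did DESeq2 with or without adjustment. Both comparisons against 2D used the same 2D samples. With scaling by total counts alone, all genes together shifted in median log2 fold change by -0.16 at day 7 and -0.21 at day 14, the share of called genes that rose went from 51.1% to 37.6% and from 52.5% to 33.0%, and the members at day 7 split into 1 up and 4 down. The count of risers at day 7 was also 1 without 2D replicate 2 or 3 or 3D_7d replicate 2 or 3, while leaving out 3D_14d replicate 1 or 3 made the count at day 14 2.

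The balance within the network was then compared per length, since levels of different genes can be compared only on that scale. TPM (transcript abundance scaled to a common total) were computed from the counts and the exon length of each gene. They carried no TMM factor and were scaled to a total weighted by gene length, so differences between groups can depart from those in CPM. MAX in 3D_14d replicate 1 was 38.7 TPM, below the 2D samples (54.3-57.1), although above them in CPM. Shares and ratios within a sample do not depend on this scaling. In 2D the order was MYC (241 ± 5.19 TPM), MLX (80.6 ± 2.00), MAX (55.5 ± 1.43), MXD3 (30.5 ± 2.34), MXD4 (19.2 ± 1.76), MXI1 (11.8 ± 1.37), MXD1 (4.62 ± 0.261), MGA (3.20 ± 0.258) and MNT (0.506 ± 0.127), and no neighbors in this order overlapped between samples. At day 7, MLX led (98.6 ± 5.82 TPM), followed by MAX (59.3 ± 2.61), MYC (43.3 ± 6.58), MXD4 (31.1 ± 11.6), MXD3 (7.58 ± 1.75), MGA (3.30 ± 0.778), MXD1 (2.74 ± 0.896), MXI1 (1.48 ± 0.427) and MNT (0.243 ± 0.0700). The ranges of MYC and MXD4 overlapped there, as did those of MGA and MXD1, although MGA was above MXD1 within each sample. At day 14 the levels of MLX (77.7 ± 9.80), MAX (57.7 ± 16.7), MXD4 (52.9 ± 1.24) and MYC (45.0 ± 16.1) lay close together, each overlapping its neighbor in this order, with MXI1 at 10.1 ± 3.82 and MXD3 at 9.21 ± 1.06. Within each day 14 sample, MLX was above MAX and MAX above MYC, whereas the place of MXD4 varied. MYC therefore no longer led the network in either 3D group.

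As a share of the summed TPM of the 9 genes, MYC made up 54.5%, 53.3% and 54.1% in the 2D replicates, 14.4%, 18.7% and 19.4% at day 7, and 12.7%, 19.1% and 18.8% at day 14. The 2D samples were close to one another, and every 3D sample was far below them. The mean shares were 54.0% ± 0.607, 17.5% ± 2.68 and 16.9% ± 3.62. Without division by length the shares of MYC were 59.9% in 2D and 21.7% at day 7.

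MYC transcripts outnumbered those of MAX by a ratio of 4.46, 4.24 and 4.34 in 2D. The same ratio was 0.640, 0.748 and 0.796 at day 7 and 0.682, 0.843 and 0.772 at day 14, below 1 in each 3D sample. Set against the summed TPM of the MAX-dependent repressors MXD1, MXD3, MXD4, MXI1, MNT and MGA, MYC gave a mean ratio of 3.46 ± 0.128 in 2D, which became 1.01 ± 0.39 at day 7 and then 0.561 ± 0.183. The repressor sum itself, which depends on the scaling, was 69.8 ± 2.62 TPM in 2D, 46.4 ± 14.5 at day 7 and 79.4 ± 4.03 at day 14. Day 7 replicate 1, at 63.1 TPM, was well above the other two of its group (38.8 and 37.3).

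Among the 4 MXD genes, the leading member changed from MXD3 to MXD4. In 2D, MXD3 made up 46.1% ± 3.40 of their summed TPM, MXD4 29.0% ± 1.96, MXI1 17.9% ± 2.05 and MXD1 6.99% ± 0.464. At day 7, MXD4 made up 71.8% ± 3.30 and MXI1 3.81% ± 1.84, and at day 14 they made up 69.3% ± 3.19 and 13.1% ± 4.58. MXD3 was at 18.0% ± 1.47 and 12.1% ± 1.93. These shares are descriptions of the same counts as above and were given no test.

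**Figure D3:**
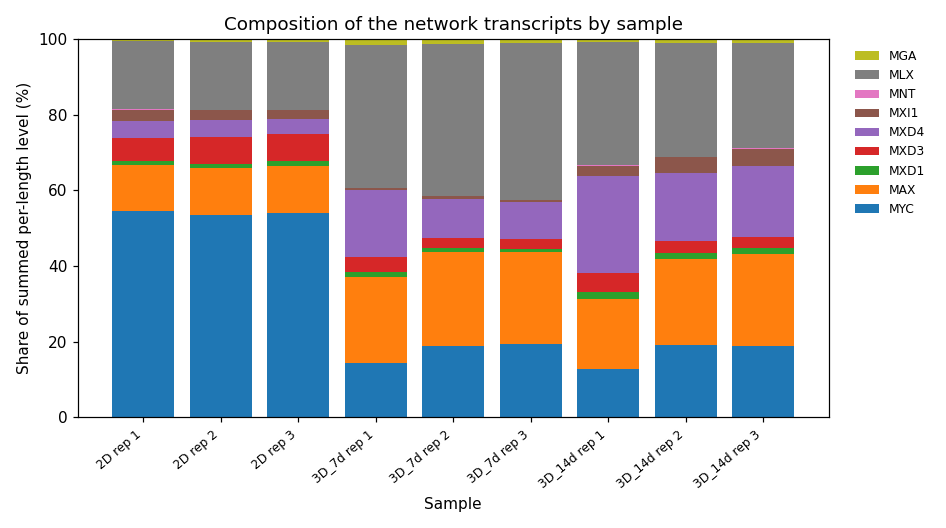
Share of each of the 9 genes in their summed per-length level (TPM, vertical axis in percent) in each of the 9 samples. MYC (bottom segment) takes 53.3-54.5% of the bar in 2D and 12.7-19.4% in the 3D samples, where MLX and MXD4 take more.

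A MYC-responsive list had more risers than fallers at day 7 and more fallers than risers at day 14, for the most part in different genes. The list of 57 MYC-responsive genes, mostly nucleolar and ribosome assembly factors with replication and mitotic genes, had 23 members up (40.4%) and 7 down (12.3%) at day 7 against 2D, beside 22.2% and 21.2% of all genes. Its median log2 fold change was 0.33, against -0.00 for all genes. At day 14 against 2D, 2 were up and 20 down (3.51% and 35.1%, beside 19.0% and 17.2%), with a median of -0.32 against 0.02. From day 7 to day 14, 2 were up and 34 down (3.51% and 59.6%, beside 14.5% and 13.6%), with a median of -0.62 against -0.00. Of the 23 genes up at day 7, 18 were lower at day 14 than at day 7, but only 4 of them were among the 20 below 2D at day 14. Of the 7 genes down at day 7, 5 were also down at day 14 against 2D. Over the 9 analyses that each left out 1 sample, the counts ranged over 16-28 up and 5-10 down at day 7, and over 0-3 up and 17-23 down at day 14. With total-count scaling they were 17 up and 8 down at day 7, and 1 up and 27 down at day 14. The 2 risers at day 14 became 0 without 2D replicate 3 and 1 without 2D replicate 1 or 2, any 3D_7d replicate or 3D_14d replicate 1.

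The 3 risers with the smallest p at day 7 were RRP12, GRWD1 and AIMP2. RRP12, a factor in export of ribosomal subunits, had mean CPM of 89.9 ± 7.61, 237 ± 38.1 and 89.9 ± 19.0 in the 3 groups, so that the log2 change of 1.40 ± 0.18 at day 7 (adjusted p = 9.43e-05) was 0.00 ± 0.18 at day 14 (adjusted p = 0.999). GRWD1, a histone-binding and ribosome assembly factor, went from 162 ± 7.09 to 328 ± 17.3 and 178 ± 23.2 CPM, with a day 7 change of 1.02 ± 0.14 (adjusted p = 0.000127). AIMP2, a scaffold of the tRNA synthetase complex, rose at day 7 by 1.17 ± 0.16 (adjusted p = 0.000134). These 3 genes were each lower at day 14 than at day 7.

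The 3 fallers with the smallest p from day 7 to day 14 were MCM5, MCM4 and NOLC1. MCM4, a subunit of the replicative helicase, had means of 193 ± 32.2, 415 ± 35.9 and 94.5 ± 37.4 CPM. It rose by 1.11 ± 0.24 at day 7 (adjusted p = 0.00279) and was 1.03 lower than 2D on the log2 scale at day 14 (-1.03 ± 0.24, adjusted p = 0.00548). MCM5 of the same helicase went from 365 ± 23.2 to 691 ± 45.7 and then 263 ± 49.9 CPM, a change of -1.39 ± 0.16 between day 7 and day 14 (adjusted p = 0.000145). NOLC1, a nucleolar chaperone, moved alike, with -1.19 ± 0.15 between them (adjusted p = 0.000279).

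Other listed genes were below 2D at day 14. The mitotic kinase PLK1 was lower at both times, with a log2 change of -0.98 ± 0.19 (adjusted p = 0.00143) and -1.09 ± 0.19 (adjusted p = 0.000968). The centriole kinase PLK4 changed by -0.76 ± 0.25 (adjusted p = 0.0290) and -1.75 ± 0.26 (adjusted p = 0.000338). TMEM97, a sterol-regulated receptor, and MPHOSPH10, a ribosomal RNA processing factor, were lower at day 14 with a log2 change of -1.6 ± 0.19 (adjusted p = 7.04e-05) and -0.97 ± 0.16 (adjusted p = 0.000541). FARSA, a subunit of phenylalanyl-tRNA synthetase, and NOC4L, a nucleolar factor, were the 2 that were higher than 2D at day 14, at 0.64 ± 0.17 (adjusted p = 0.00969) and 0.54 ± 0.19 (adjusted p = 0.0424). NOC4L lost this call in 12 of the alternatives.

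A pair of listed genes was lowest at day 7, as MXI1 was. DUSP2, a phosphatase of MAP kinases, had means of 374 ± 120.2, 108 ± 48.2 and 466 ± 82.4 CPM, with log2 changes of -1.79 ± 0.30 at day 7 (adjusted p = 0.000571) and 2.11 ± 0.31 from day 7 to day 14 (adjusted p = 0.000648). MAP3K6, a stress kinase near the limit of the filter (1.05 ± 0.387 CPM in 2D, 0.104 ± 0.0454 at day 7), changed by -3.32 ± 0.60 (adjusted p = 0.000884) and 2.81 ± 0.61 (adjusted p = 0.00544). They were the 2 listed genes that rose between day 7 and day 14.

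**Figure D4:**
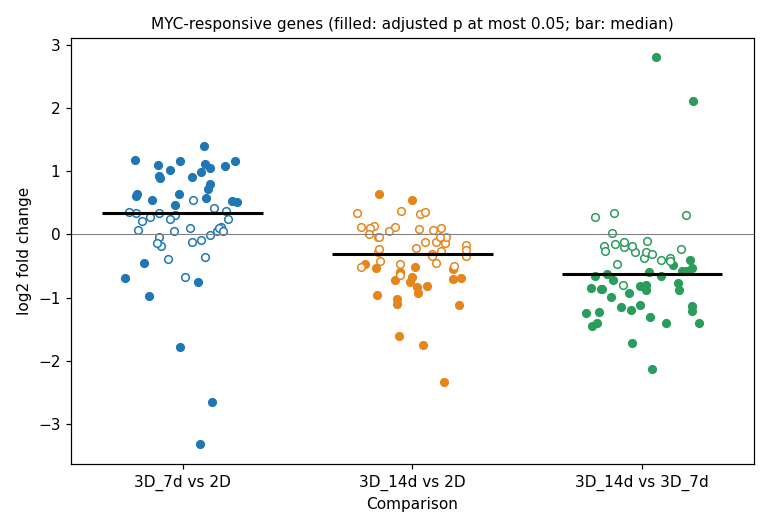
Log2 fold change of the 57 MYC-responsive genes in each comparison (1 point per gene, horizontal spread arbitrary). Filled points have an adjusted p of at most 0.05, and the black bars are the medians of 0.33, -0.32 and -0.62.

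A promoter in the RefSeq table was found for 46 of the 57 genes (80.7%), and 25 of these (54.3%) held CACGTG. The share was 8.77% over all 27305 genes with a listed promoter, retained or not, and was not computed for retained genes alone. In the counts that follow, all genes are the retained genes. Of the 25 with the motif, 9 rose and 3 fell at day 7 (36% and 12%, beside 22.2% and 21.2% of all genes). At day 14 against 2D, 0 of them rose and 11 fell (0% and 44%, beside 19.0% and 17.2%). Of the 21 without it, 7 rose and 2 fell at day 7 (33.3% and 9.52%). At day 14, 2 of these rose and 4 fell (9.52% and 19.0%, the falls near the share of all genes). From day 7 to day 14, 17 of the 25 (68%) and 11 of the 21 (52.4%) fell, beside 13.6% of all genes. Median log2 fold changes were 0.33 and 0.21 at day 7 and -0.50 and -0.21 at day 14, with and without the motif. The difference between genes with and without the motif was not tested.

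Of 15 individually studied MYC targets tested, 5 rose and 4 fell at day 7 (33.3% and 26.7%, beside 22.2% and 21.2% of all genes), 1 rose and 7 fell at day 14 (6.67% and 46.7%, beside 19.0% and 17.2%), and 1 rose and 8 fell from day 7 to day 14 (6.67% and 53.3%, beside 14.5% and 13.6%). CAD, which starts pyrimidine synthesis, went from 41.6 ± 11.1 to 131 ± 4.22 and 48.1 ± 10.4 CPM, a log2 change of 1.66 ± 0.20 at day 7 (adjusted p = 6.12e-05) and -1.45 ± 0.20 thereafter (adjusted p = 0.000486). TFRC, the transferrin receptor, rose by 1.6 ± 0.25 (adjusted p = 0.000292) and fell by 1.33 ± 0.24 on the log2 scale from day 7 to day 14 (adjusted p = 0.00237). CCND2, a D-type cyclin, rose by 1.21 ± 0.16 at day 7 (adjusted p = 0.000127) and stood 0.49 ± 0.16 above 2D at day 14 (adjusted p = 0.0316), a call lost in 9 of the alternatives, among them without any 1 of the 2D replicates, 3D_7d replicate 3 and 3D_14d replicate 2 or 3.

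In contrast, SHMT2, the mitochondrial serine hydroxymethyltransferase, fell with MYC: 785 ± 27.6 CPM in 2D became 230.3 ± 12.1 at day 7 and 443 ± 105 at day 14, or -1.77 ± 0.17 (adjusted p = 1.14e-05) and -0.83 ± 0.16 (adjusted p = 0.00198). PTMA, encoding prothymosin alpha, changed by -1.27 ± 0.16 (adjusted p = 8.81e-05) and -1.15 ± 0.16 (adjusted p = 0.000242). FBL, the fibrillarin methyltransferase of the nucleolus, changed by -0.70 ± 0.17 (adjusted p = 0.00454) and -0.64 ± 0.17 (adjusted p = 0.00978). TERT, the telomerase catalytic subunit, went from 5.78 ± 0.441 to 1.47 ± 0.319 and 0.392 ± 0.502 CPM, with -1.97 ± 0.61 (adjusted p = 0.0198) and -3.87 ± 0.68 (adjusted p = 0.000966). Its day 14 mean rested on 3D_14d replicate 3, with 54 reads beside 7 and 4 in the others, and without that library the day 14 change was -5.78 (adjusted p = 6.06e-05). Nucleolin (NCL) and the phosphatase CDC25A were lower at day 14 than at day 7, with a log2 change of -0.76 ± 0.13 (adjusted p = 0.00122) and -2.14 ± 0.35 (adjusted p = 0.00125). Of 6 genes known to be repressed by MYC, 3 were retained and 0 rose in any comparison in edgeR, beside 14.5-22.2% of all genes. From day 7 to day 14 all 3 had positive log2 differences (0.32 to 0.72), and up to 2 passed with 1 sample left out. A count over 3 genes is too small to set against the share of all genes. CDKN1B, the cell cycle inhibitor p27, was lower than 2D at day 7 with a log2 change of -1.6 ± 0.26 (adjusted p = 0.000424) and at day 14 with -0.87 ± 0.25 (adjusted p = 0.0174), the latter not without 2D replicate 3 or 3D_14d replicate 3.

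Of 13 cofactors that MYC brings to chromatin, 5 rose and 1 fell at day 7 (38.5% and 7.69%, beside 22.2% and 21.2% of all genes), 1 rose and 1 fell at day 14 (7.69% each, beside 19.0% and 17.2%), and 1 rose and 6 fell between day 7 and day 14 (7.69% and 46.2%, beside 14.5% and 13.6%). RUVBL1, an ATPase of chromatin remodeling complexes, went from 103 ± 5.66 to 196 ± 23.5 and 98.1 ± 14.5 CPM, that is 0.93 ± 0.15 at day 7 (adjusted p = 0.000431) and -1.0 ± 0.15 thereafter (adjusted p = 0.000788). The acetyltransferase KAT5 and the actin-related subunit ACTL6A rose at day 7 by 0.65 ± 0.15 (adjusted p = 0.00461) and 0.55 ± 0.14 (adjusted p = 0.00576). KAT5 was still above 2D at day 14 (0.44 ± 0.15, adjusted p = 0.0388, lost in 10 alternatives) and differed from day 7 by -0.21 ± 0.15 (adjusted p = 0.329). WDR5, which anchors MYC to chromatin, rose by 0.45 ± 0.13 (adjusted p = 0.0137) and was lower at day 14 than at day 7 with a log2 change of -0.59 ± 0.13 (adjusted p = 0.00622). KAT2A (GCN5) fell from 80.6 ± 11.9 to 35.2 ± 1.67 and 19.6 ± 1.42 CPM, by -1.20 ± 0.15 (adjusted p = 8.32e-05) and -2.04 ± 0.16 (adjusted p = 7.19e-06). The 5 risers at day 7 became 3 without 2D replicate 1 or 3 or 3D_7d replicate 2, and 2 without 3D_7d replicate 3.

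Of the 9 listed genes in the table that set MYC protein stability, 1 rose and 2 fell at day 7 (11.1% and 22.2%, beside 22.2% and 21.2% of all genes), 2 rose and 3 fell at day 14 (22.2% and 33.3%, beside 19.0% and 17.2%), and 1 rose and 3 fell between the 3D groups (11.1% and 33.3%, beside 14.5% and 13.6%). AURKA and CIP2A, which can stabilize MYC family proteins, fell in every comparison: AURKA from 100.3 ± 2.22 to 58.2 ± 5.35 and 40.6 ± 3.33 CPM, and CIP2A from 30.7 ± 2.11 to 14.2 ± 3.47 and 7.18 ± 1.25. At day 14 their log2 changes from 2D were -1.30 ± 0.14 (adjusted p = 3.22e-05) and -2.10 ± 0.21 (adjusted p = 2.57e-05). SKP2, a ubiquitin ligase subunit that acts on MYC, was lower at day 14 with a log2 change of -1.13 ± 0.18 (adjusted p = 0.000513). On the rising side, the MYC ubiquitin ligase STUB1 (CHIP) changed by 0.82 ± 0.22 (adjusted p = 0.00980) and 0.99 ± 0.22 (adjusted p = 0.00408). GSK3A, one of the kinases that mark MYC for degradation, rose at day 14 by 1.58 ± 0.22 (adjusted p = 0.000218). Leaving out 2D replicate 3 took the day 7 riser away, and leaving out 3D_7d replicate 3 or 3D_14d replicate 1 made the risers 2. MYC protein was not measured in these files.

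Of 14 subunits of SIN3-HDAC, the corepressor that MXD proteins recruit, 6 rose and 4 fell at day 7 (42.9% and 28.6%, beside 22.2% and 21.2% of all genes). At day 14, 2 rose and 3 fell (14.3% and 21.4%, close to the 19.0% and 17.2% of all genes), and 1 rose and 2 fell between day 7 and day 14 (7.14% and 14.3%, beside 14.5% and 13.6%). BRMS1 rose at both times, by 1.39 ± 0.20 (adjusted p = 0.000208) and 1.17 ± 0.20 (adjusted p = 0.000862). The histone chaperones RBBP7 and RBBP4 rose at day 7 by 0.50 ± 0.13 (adjusted p = 0.00928) and 0.56 ± 0.16 (adjusted p = 0.0136). The SIN3-binding scaffolds ARID4A and ARID4B fell at both times. ARID4A changed by -1.42 ± 0.19 (adjusted p = 9.95e-05) and -0.94 ± 0.18 (adjusted p = 0.00189), and ARID4B by -0.95 ± 0.19 (adjusted p = 0.00156) and -0.78 ± 0.19 (adjusted p = 0.00681). ING2, a histone reader, changed by -0.87 ± 0.20 (adjusted p = 0.00370) and -0.75 ± 0.20 (adjusted p = 0.0111). SAP30, a bridging subunit, was low at day 7 like MXI1 (10.8 ± 3.02, 3.52 ± 0.891 and 15.8 ± 9.31 CPM) and rose from day 7 to day 14 by 2.17 ± 0.37 (adjusted p = 0.00168), or by 1.57 (adjusted p = 0.00454) without 3D_14d replicate 3. The catalytic subunit HDAC1 was higher by 0.42 ± 0.13 (adjusted p = 0.0176) and 0.35 ± 0.13 (adjusted p = 0.0486), the second of which was lost in 15 alternatives, while HDAC2 fell between day 7 and day 14 with -0.52 ± 0.13 (adjusted p = 0.0107). The 6 risers at day 7 were 1 to 3 without any 1 of the 2D replicates or 3D_7d replicate 2 or 3. With 1 sample left out, risers at day 14 were 1 or 2. Between the 3D groups, risers were then 1 or 2 and fallers 0 to 3.

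PRC1.6, the complex built on MGA, had 4 subunits up and 1 down of 12 at day 7 (33.3% and 8.33%, beside 22.2% and 21.2% of all genes), 2 up and 1 down at day 14 (16.7% and 8.33%, beside 19.0% and 17.2%), and 0 up and 3 down from day 7 to day 14 (0% and 25%, beside 14.5% and 13.6%). L3MBTL2, its chromatin-compacting subunit, went from 44.5 ± 2.33 to 120.2 ± 3.05 and 61.5 ± 11.9 CPM, a change of 1.43 ± 0.15 at day 7 (adjusted p = 2.73e-05) and -0.97 ± 0.15 afterwards (adjusted p = 0.000987). RING1, a ubiquitin ligase, fell at day 7 (log2 change -0.59 ± 0.20, adjusted p = 0.0305), and PCGF6, which defines the complex, at day 14 (-0.64 ± 0.19, adjusted p = 0.0198). WDR5, HDAC1 and HDAC2 stand in this list too. The 4 risers at day 7 were 1 or 2 without any 1 of the 2D replicates or 3D_7d replicate 2 or 3, and the faller was lost without each of them. The 2 risers at day 14 were 0 without any 1 of the 2D replicates or 3D_7d replicate 2. They were 1 without 3D_7d replicate 1 or 3 or 3D_14d replicate 2. The faller at day 14 was lost without 2D replicate 2 or 3 or 3D_14d replicate 3. Germline genes that the complex keeps silent were nearly absent, with 3 of 16 retained. TDRKH, a piRNA pathway factor, was higher at both times (1.23 ± 0.18, adjusted p = 0.000177, and 0.70 ± 0.17, adjusted p = 0.00747), and STAG3, a meiotic cohesin, was lower at day 7 (-1.14 ± 0.20, adjusted p = 0.000629).

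**Figure D5:**
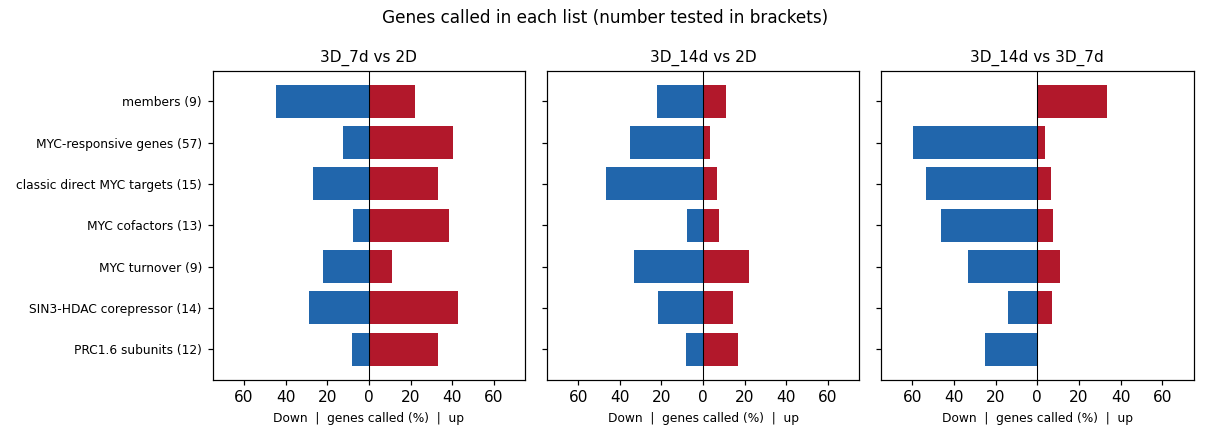
Percent of the genes tested in each list that were called up (red, right) or down (blue, left) at an adjusted p of at most 0.05, for the 3 comparisons, with the number tested in brackets. The MYC-responsive genes go from 40.4% up and 12.3% down at day 7 to 3.51% up and 35.1% down at day 14, both against 2D.

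On the MLX side of the network, 2 genes are the classic reporters of MLX with MLXIP, TXNIP and ARRDC4, both arrestins that limit glucose uptake. These factors bind 2 E-box-like elements set 5 bases apart. This double element, written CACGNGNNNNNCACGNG and searched on both strands, was in 20 of 35116 promoters (0.0570%), and TXNIP was one of them, whereas the ARRDC4 promoter held a single CACGTG. The stretches are shown for comparison with those of the members above. TXNIP is read from the minus strand of chr1:145996639-145996679 (element at -88) and ARRDC4 from the plus strand of chr15:97960481-97960510 (-210), both upstream of the gene and with the element in capitals.
TXNIP: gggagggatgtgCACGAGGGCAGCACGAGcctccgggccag
ARRDC4: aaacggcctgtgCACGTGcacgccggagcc

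The pair moved in opposite directions between the 3D groups. TXNIP was at 238, 259 and 266 CPM in 2D, at 224, 182 and 193 at day 7 and at 263, 378 and 271 at day 14. The day 7 samples were the lowest 3, and day 14 overlapped with 2D. Its log2 change was -0.34 ± 0.16 at day 7 (adjusted p = 0.102, past the threshold in 5 alternatives with -0.50 to -0.34), 0.26 ± 0.16 at day 14 (adjusted p = 0.229) and 0.60 ± 0.16 between them (adjusted p = 0.0157), the last lost without 3D_7d replicate 2. ARRDC4, far scarcer, had 3.60, 5.89 and 3.30 CPM in 2D, 4.88, 8.18 and 6.46 at day 7 and 3.19, 2.32 and 4.42 at day 14. Only the 3D groups were free of overlap, and the difference between them was -0.97 ± 0.33 (adjusted p = 0.0422), which was lost in 9 of the 18 alternatives, 6 of them analyses without 1 sample.

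Among other zipper factors that read CACGTG, 5 of 6 were retained. TFE3, a lysosomal regulator, was higher at day 7 (0.66 ± 0.17, adjusted p = 0.00789) and day 14 (0.61 ± 0.17, adjusted p = 0.0154), and its relative TFEB at day 14 (0.60 ± 0.15, adjusted p = 0.00777). TFEC, another relative, fell at both times, by -1.16 ± 0.26 (adjusted p = 0.00309) and -1.80 ± 0.26 (adjusted p = 0.000300). USF2, a ubiquitous E-box factor, rose between day 7 and day 14 by 1.07 ± 0.30 (adjusted p = 0.0180). At day 7, 1 of the 5 rose and 1 fell (20% each, near the 22.2% and 21.2% of all genes), at day 14 2 rose and 1 fell (40% and 20%, beside 19.0% and 17.2%), and between the 3D groups 2 rose and 0 fell by edgeR (40% and 0%, beside 14.5% and 13.6%). The 2 risers at day 14 became 1 or 0 when a 2D replicate was left out, and those between the 3D groups 1 or 0 without 3D_7d replicate 2 or 3 or 3D_14d replicate 3.

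The course of each member over the 9 samples was last matched to those of all other retained genes, by the Pearson r of log2 CPM. The samples form 3 groups, so r mostly reflects group means, and it is given as a description. CXCR4, a chemokine receptor, was nearest to MYC (r = 0.992), with means of 26.4, 11.2 and 11.5 CPM in 2D, day 7 and day 14, followed by MICD (0.986) and the proline synthesis enzyme PYCR1 (0.985; 357, 143 and 142 CPM). MXD3 was nearest to NOXA1 (0.991), PDGFA (0.991) and AGRN (0.990), and MXD4 to TBC1D10B (0.987), SPATA2L (0.986) and IFNG-AS1 (0.981). For MXI1 the genes were FOXP4-AS1 (0.982), the acid ceramidase gene ASAH1 (0.977; 284, 149 and 293 CPM) and MID1IP1 (0.977), and for MXD1 they were PCMTD1 (0.992), ADAMTS7 (0.967) and SLC25A28 (0.967). MAX was nearest to TNFSF13 (0.987), RNF146 (0.982) and CRTC2 (0.976), MLX to RARG (0.982), NDRG3 (0.978) and BABAM2 (0.977), MNT to RPS13P2 (0.970), KRT10 (0.969) and AP001024.1 (0.962), and MGA to PLEKHA8P1 (0.946), TMEM266 (0.891) and EP300 (0.891). Within the network, MYC had r = 0.87 with MXD3, -0.83 with MLX and -0.77 with MXD4.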

How the data were processed

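RNA had been sequenced from 9 MEC1 samples (3 per group) after SMART-Seq v4 library preparation, in single reads. Per the submitters' processing notes, the authors trimmed with Trimmomatic 0.39, aligned to GRCh38 with STAR 2.5.3a and counted with featureCounts 1.6.4, and the strand setting was not given in the sources used here. The deposited values are raw counts per gene symbol, with exon coordinates and lengths. Samples were grouped by their labels, and no sample was left out.

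Symbols with over 1 CPM in at least 3 samples were retained (13463 of 59050), scaled by TMM and fitted over all 9 samples with edgeR 4.0.16 (R 4.3.3) by the quasi-likelihood F test, adjusting p-values over genes after Benjamini and Hochberg (threshold 0.05). Standard errors are the log2 fold change divided by the root of F. The fit was tested on simulated data. TPM were computed from counts and exon lengths, without TMM factors. The 18 alternatives were edgeR with DESeq2 size factors, with total counts alone or with TMM factors that ignore genes of immunoglobulins, ribosomal proteins and mitochondria, the DESeq2 1.42.0 Wald test, filterByExpr, no filter, the samples of each comparison alone, a replicate block, removal of the trend with gene length, and each of the 9 samples left out. Precision is limited by the 3 replicates per group and, for genes with few reads, by depth.

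The members and all lists were chosen with earlier results of these data known. Named genes are the members, other network genes, PVT1, TXNIP, ARRDC4, up to 3 genes per list, comparison and direction with the smallest p among called genes whose groups do not overlap, and the 3 genes of highest r per member. PHB1 was matched by its older symbol PHB, EIF4A1 had no count, and USP36 was not analysed here. A B-cell marker and a gene acting on MYC protein were taken out of their lists and are not reported here. Promoters are from RefSeq (GRCh38.p14).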

Additional observations from a re-analysis of the deposited data

Results flagged for a closer look

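Levels differed between the 3D_7d and 3D_14d groups, by the test of that difference in edgeR (adjusted p of at most 0.05), for 3 members and for 36 of the other genes named. Day and handling at harvest cannot be told apart here. Given as the log2 difference of day 14 from day 7, the members were MXI1 (2.92), MXD4 (0.99) and MXD1 (0.81). Near the network, PVT1 differed by 0.95, TXNIP by 0.60 and ARRDC4 by -0.97. The MXD1 value missed the threshold without 3D_7d replicate 2 (0.75) or 3 (0.69).

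Higher at day 14 were MAP3K6 (2.81), SAP30 (2.17), DUSP2 (2.11), GSK3A (1.11), USF2 (1.07), SHMT2 (0.94), STAG3 (0.77) and TFEB (0.51). Lower at day 14 were CDC25A (-2.14), MCM4 (-2.14), TERT (-1.89), CAD (-1.45), RRP12 (-1.40), MCM5 (-1.39), TFRC (-1.33), TMEM97 (-1.24), NOLC1 (-1.19), SKP2 (-1.05), RUVBL1 (-1.0), PLK4 (-0.99), CIP2A (-0.98), L3MBTL2 (-0.97), GRWD1 (-0.88), KAT2A (-0.84), AIMP2 (-0.81), NCL (-0.76), CCND2 (-0.72), WDR5 (-0.59), ACTL6A (-0.56), TDRKH (-0.53), AURKA (-0.52), HDAC2 (-0.52) and RBBP7 (-0.40). Most of these genes had been named for passing in one of the comparisons, so their number says nothing about the lists.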

How the results depend on the processing

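For the members, 453 of the values over the alternatives had the direction and call given above, 11 gained and 15 lost the call, and 7 had the other sign. The calls of MYC and MXD3 against 2D, of MXD4 in all comparisons, and of MXI1 at day 7 and from day 7 to day 14 held in all 18. With total counts alone, the members up at day 7 were 1, MXI1 at day 14 was -0.091, MGA -0.13 and MLXIP -0.14, and the MYC-responsive genes up at day 14 were 1. With no filter, the members up at day 7 were 1. By DESeq2 and with the length trend removed, the members up at day 14 were 2. MYC-responsive genes up at day 14 were also 1 with TMM without immunoglobulin, ribosomal protein and mitochondrial genes, with filterByExpr, with no filter and with the samples of each comparison alone. The share of MYC was 59.9% in 2D and 21.7% at day 7 without division by length.

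With 1 sample left out, members up ranged from 1 to 2 at day 7 and at day 14, and MYC-responsive genes up at day 14 from 0 to 3. Signs turned for MXI1 at day 14 (-0.048 to 0.31, below 0 without 2D replicate 3 or 3D_14d replicate 2 or 3), MNT at day 14 (-0.068 to 0.57, below 0 without 3D_14d replicate 3), MGA at day 14 (-0.017 to 0.18, below 0 without 3D_14d replicate 3), MLXIP at day 14 (-0.020 to 0.20, below 0 without 3D_14d replicate 1) and MYCL from day 7 to day 14 (-0.15 to 0.61, below 0 without 3D_7d replicate 3 or 3D_14d replicate 2). None of these passed the test in the main analysis, and the cause was not tested.

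Samples with the same replicate number gave small r over genes (-0.10 to 0.19). Between 2D and 3D_14d these were 0.19, 0.11 and 0.09, each above the pairs of unlike number (-0.13 to 0.04). Same-number pairs that included 3D_7d were all negative (-0.10 to -0.0052). Whether the numbers pair the samples is therefore not settled. A replicate block gave 5760, 4819 and 3683 called genes, beside 5838, 4875 and 3785, changed no call of a member, and lost that of ARRDC4 (-0.93). MNT, MYCL and ARRDC4 had few reads and wide errors. Among the other named genes, the calls lost most often over the 18 alternatives were those of HDAC1 at day 14 (15 times), NOC4L at day 14 (12), RBBP7 from day 7 to day 14 (11), KAT5 at day 14 and TDRKH from day 7 to day 14 (10 each), CCND2 at day 14 and ARRDC4 from day 7 to day 14 (9 each), L3MBTL2 at day 14 (8), HDAC1 at day 7 (7), and RING1 and WDR5 at day 7 (6 each).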
